A study of Mus musculus with 6 samples.

Results

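The *YAP*, *TEAD* and *Vgll* factors described here are 10 genes of the transcriptional end of the Hippo pathway, namely the coactivator genes *Yap1* and *Wwtr1*, the DNA-binding factor genes *Tead1*, *Tead2*, *Tead3* and *Tead4*, the cofactor genes *Vgll2*, *Vgll3* and *Vgll4*, and the kinase gene *Lats2*. They are taken by symbol, with no threshold on a measured value, from the 54525 gene rows of an RNA-seq comparison of C2C12 cells before and after differentiation. C2C12 is an established line of mouse myoblasts, proliferating muscle precursor cells that leave the cell cycle and fuse into multinucleated myotubes when serum is withdrawn. All 6 libraries were labelled WT with no treatment, and all were given the cell type of muscle myoblasts, the differentiated ones included. The D0 group held 3 cultures of myoblasts kept in growth medium with fetal bovine serum, and the D5 group held 3 cultures after 5 days of differentiation, for which myoblasts were switched to medium with horse serum. Whether the 3 cultures of a group were grown independently was not given, so the tests measure only the spread between these libraries, which may be technical.

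The Hippo pathway is a kinase cascade in which MST kinases with their adaptor SAV1 activate the LATS kinases, and LATS kinases with their adaptor MOB1 phosphorylate YAP and TAZ, the protein of *Wwtr1*, and thereby keep them out of the nucleus. YAP and TAZ do not bind DNA themselves. In the nucleus they are held on genes by TEAD proteins, which recognise a short element first known as the MCAT box of muscle promoters. Vestigial-like (Vgll) proteins bind TEAD proteins through a site that overlaps that of YAP and TAZ. In skeletal muscle TEAD proteins take part in both proliferation of precursors and expression of contractile genes, and *Tead4* is a known target of the myogenic factors MyoD and myogenin. RNA levels do not report the phosphorylation or the location of any of these proteins.

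Members of these families moved in both directions between myoblasts and myotubes. *Tead4* rose 20.3-fold, *Wwtr1* 2.58-fold and *Vgll4* 1.28-fold, the last of these turning to a fall that was not called with scaling to spike-in RNAs, whereas *Tead2* fell to 33.3%, *Vgll3* to 64.4%, *Yap1* to 76.2% and *Tead1* to 80.0% of the myoblast level. *Tead3*, *Vgll2* and *Lats2* did not pass the test. With the spike-in scaling *Tead4* and *Tead2* were the 2 members that still passed. All 10 genes were among the 16290 that passed a filter on low counts, so 3 of 10 were called higher and 4 of 10 lower at an adjusted p under 0.05 by edgeR's quasi-likelihood test, against 42.2% of all genes tested called higher and 40.8% called lower. A call in either direction was thus common, 82.9% of all genes, and the share of members called was no larger than that background. Their median log2 fold change was -0.05, and that of all genes tested was 0.00. The sizes were more unequal than this median shows. *Tead4* stood at rank 788 from the top, with 4.84% of genes at or above it. *Wwtr1* had 14.6% of genes at or above it, and *Tead2* had 8.46% of genes at or below it. A called rise of at least 2-fold was seen in 19.3% of all genes tested and a fall of that size in 16.0%.

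**Figure D1:**
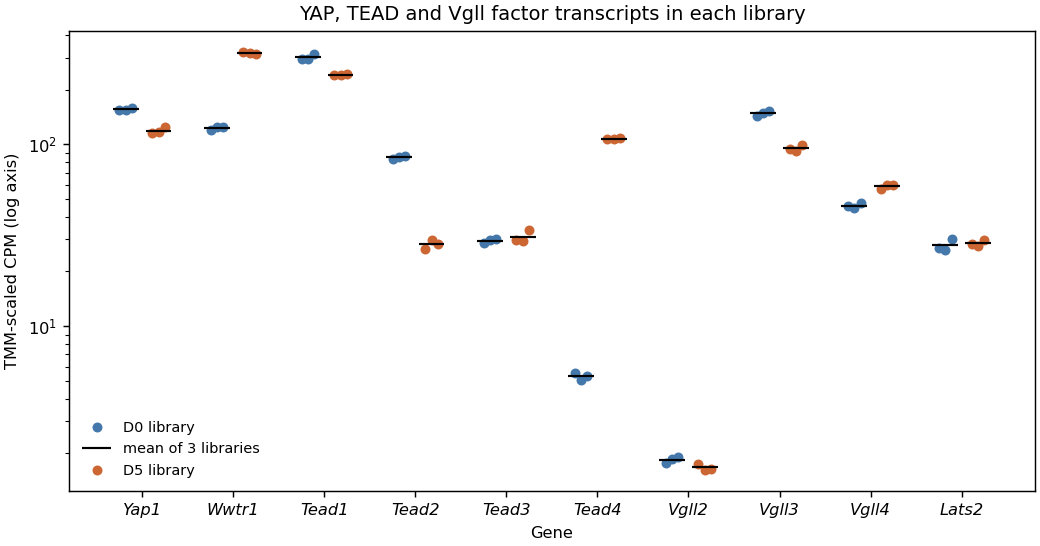
Level of each of the 10 genes in every library, as TMM-scaled CPM (counts per 1000000 counts) on a log axis. Blue points are the 3 D0 libraries, orange points the 3 D5 libraries, and black lines the group means. The groups are far apart for *Tead4*, *Wwtr1* and *Tead2*, and overlap for *Tead3* and *Lats2*.

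Counts on genes ranged from 25449759 to 40895840 per library, and every D0 library was deeper than every D5 library. Spike-in RNAs of the ERCC set took from 0.720% to 2.09% of the counts, both extremes being D5 libraries. Of the marker genes of differentiation, 4 of 4 myotube markers rose, 4 of 4 proliferation markers fell with log2 fold changes from -5.11 to -4.40, and of the myoblast markers *Myod1*, *Myf5* and *Pax7* fell while *Des* rose. Markers of another cell type also moved with the groups. Of 4 fibroblast markers, *Pdgfra*, *Dpt* and *Lum* rose and *Thy1* had at most 1 count in any library. Their summed level went from 0.431 to 0.659 TPM at D0 to between 50.4 and 66.3 TPM at D5. *Lum* was at 0 counts in the 3 D0 libraries and at 301, 209 and 235 counts at D5, at least 132-fold higher against a limit of 3 counts in each D0 library. The part of fibroblast marker expression in the changes below was not tested. Adipocyte markers had at most 1 count in any library. The summed endothelial markers went from a range of 0.963 to 1.17 TPM at D0 to one of 0.132 to 0.197 TPM, leukocyte markers from 8.52 to 8.95 TPM to 4.66 to 6.53 TPM, and glial markers from 1.23 to 1.40 TPM to 0.778 to 1.10 TPM, with the defining genes *Tie1* and *Adgre1* at 0 in every library. *Cd68* was called lower among the leukocyte markers, whereas *Itgam* went from 0 counts in the 3 D0 libraries to 10, 13 and 5 counts at D5. Its mean at D5 was at least 4.99-fold higher against the same limit, but it did not pass the filter on low counts. The annotation places 68.7% of the exonic length of *Itgam* within another gene model of the same strand, *Gm49368*, so its counts are uncertain. The part of these markers was not tested. In RNA from whole cultures, fewer cells of a type and less RNA per cell cannot be told apart.

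The promoters of the changed members are shown first, since TEAD proteins act through the MCAT element and the members could be read for it. The MCAT element was searched as GGAATG on either strand, that is GGAATG or its reverse complement CATTCC, in RefSeq windows of GRCm38.p6 that run from 250 bases before to 50 bases after an annotated start. Of the 10 members, 8 had 12 windows in that table, some of which overlap, and 6 of these 8 genes and 8 of the 12 windows held the element. The same letters were found in 14.7% of all 32851 windows, and in 2708 of 17492 protein-coding genes with a window (15.5%). Among the target genes described below 6 of 14 genes with a window held it, among the kinases and adaptors 2 of 10, and among the junction and scaffold regulators 5 of 11. *Amotl2* and *Ptpn14*, which held it, are on both the target list and the junction and scaffold list and are counted in each. The E-box CAGCTG, its own reverse complement and a recognition sequence of myogenic factors, was in 0 of the 12 member windows and in 16.3% of all windows. A match is a description of letters and not a bound site, and a window without these letters says nothing about the factor. *Tead1* and *Tead4* had no window.

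The upstream part of the window is given for the called members with a window, 5′ to 3′ on the strand of the gene, with the MCAT element in capitals. *Yap1* (chr9:8004597-8004846, minus strand) and *Wwtr1* (chr3:57575911-57576160, minus strand) moved in opposite directions and each carried GGAATG, at positions -141 and -136 counted so that -1 is the last base before the start. *Vgll3* (chr16:65814939-65815188, plus strand) fell and carried the reverse complement at -63, and *Vgll4* (chr6:114969204-114969453, minus strand) rose and carried GGAATG at -82. The Vgll4 window lies within the gene, before an internal start. *Tead2* (chr7:45215542-45215752, plus strand, cut where its first annotated exon begins) fell and held no match.
Yap1: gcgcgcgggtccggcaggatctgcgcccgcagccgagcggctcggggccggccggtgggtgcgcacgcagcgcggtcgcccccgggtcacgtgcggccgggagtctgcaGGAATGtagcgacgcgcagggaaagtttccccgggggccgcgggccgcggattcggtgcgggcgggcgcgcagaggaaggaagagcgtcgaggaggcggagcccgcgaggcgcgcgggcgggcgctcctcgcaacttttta
Wwtr1: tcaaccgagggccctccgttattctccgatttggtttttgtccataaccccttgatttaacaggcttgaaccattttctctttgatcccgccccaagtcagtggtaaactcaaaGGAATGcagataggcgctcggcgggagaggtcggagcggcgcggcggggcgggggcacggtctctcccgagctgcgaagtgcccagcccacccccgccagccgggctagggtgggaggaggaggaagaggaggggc
Vgll3: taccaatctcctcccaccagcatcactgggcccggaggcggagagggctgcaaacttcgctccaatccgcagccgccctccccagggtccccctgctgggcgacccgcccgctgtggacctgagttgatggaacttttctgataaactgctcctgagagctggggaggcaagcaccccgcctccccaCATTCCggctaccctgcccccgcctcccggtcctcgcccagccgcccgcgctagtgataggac
Vgll4: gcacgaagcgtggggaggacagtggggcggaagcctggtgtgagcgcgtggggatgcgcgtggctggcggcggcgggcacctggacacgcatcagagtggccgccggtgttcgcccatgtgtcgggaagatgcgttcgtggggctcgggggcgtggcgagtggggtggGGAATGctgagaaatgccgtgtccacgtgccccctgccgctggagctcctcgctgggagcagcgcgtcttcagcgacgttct
Tead2: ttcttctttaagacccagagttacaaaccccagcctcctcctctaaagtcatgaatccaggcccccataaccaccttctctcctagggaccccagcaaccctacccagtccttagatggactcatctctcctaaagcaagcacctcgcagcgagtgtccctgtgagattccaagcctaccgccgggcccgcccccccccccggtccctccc
*Tead3*, which was not called, held the element in 2 of its 3 windows, and *Lats2*, also not called, held it in 1 of its 2 windows, after the annotated start. *Vgll2* held none. Members with the letters thus included genes that rose, fell or were not called.

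Among the coactivators, the balance moved from *Yap1* towards *Wwtr1*. *Yap1* (ENSMUSG00000053110.13, chr9:7931999-8004596, minus strand of GRCm38) encodes YAP, the coactivator best known for driving growth of precursor cells. It had 155, 155 and 159 CPM in D0 replicates 1, 2 and 3 and 115, 117 and 125 CPM in D5 replicates 1, 2 and 3. All 3 D5 values were under the D0 values, as was the case for 41.1% of all genes tested. Its log2 change was -0.39 ± 0.035 (SE, edgeR adjusted p = 1.9e-11). *Wwtr1* (ENSMUSG00000027803.14, chr3:57455649-57575910, minus strand) encodes TAZ, the paralog of YAP. Its D0 libraries had 120, 124 and 125 CPM, and its D5 libraries had 321, 318 and 314 CPM. All D5 libraries lay above all D0 libraries, as in 42.2% of all genes tested, and the 3 values of each group were close to each other. Its log2 change was 1.37 ± 0.033 (SE, edgeR adjusted p = 4.7e-26). The coding sequences of *Yap1* and *Wwtr1* were 64.8% identical over their alignment and shared no stretch of 50 bases. Whether reads of one were counted on the other was not tested. An opposite-strand gene overlaps 1.25% of the exonic length of *Yap1*.

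Levels of different genes are compared per length, as TPM, in which counts are divided by exonic length before scaling to a common total. The ratio of *Wwtr1* to *Yap1* TPM was 1.5, 1.55 and 1.52 in the D0 libraries and 5.40, 5.27 and 4.86 in the D5 libraries. The groups did not overlap, and the ratio was 3.40 times as large at D5. *Yap1* made up 39.6 ± 0.432% (SD, n = 3) of the summed *Yap1* and *Wwtr1* TPM at D0 and 16.2 ± 0.757% (SD, n = 3) at D5. With groups of 3, the smallest two-sided p of an exact permutation test is 0.1, and this value was obtained for each of the 17 family sums, shares and ratios computed. The *Yap1* share itself depends on the length used, because the exons of all *Yap1* transcripts span 9257 bases and its longest transcript 5282 bases. With the longest transcript of each gene *Yap1* made up 53.1% at D0 and 25.0% at D5, so which coactivator was the more abundant in myoblasts is not settled by these counts, whereas *Wwtr1* was the more abundant at D5 with either length. The summed TPM of both went from 147 ± 4.87 to 246 ± 5.96 (SD, n = 3 each).

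Within the TEAD family, *Tead4* rose, *Tead2* and *Tead1* fell and *Tead3* was not called. *Tead4* (ENSMUSG00000030353.15, chr6:128224288-128300823, minus strand) encodes the TEAD factor linked to the myogenic program, and was the lowest of the 4 in myoblasts. Reads on it numbered 206, 213 and 214 in the D0 libraries and 2687, 2652 and 2680 in the shallower D5 libraries. After scaling these were 5.5, 5.07 and 5.31 CPM at D0 and 107, 108 and 108 CPM at D5. Every D5 library was thus far above every D0 library, with less spread among the 3 D5 libraries than in any other member relative to its level. Its log2 change was 4.34 ± 0.052 (SE, edgeR adjusted p = 7.2e-34). Leaving out each library in turn kept it between 4.30 and 4.36.

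*Tead2* (ENSMUSG00000030796.17, chr7:45215753-45233644, plus strand), a TEAD gene known from early embryos and neural precursors, moved in the other direction. It had 83.5, 84.9 and 86.2 CPM at D0 and 26.5, 29.8 and 28.5 CPM at D5. The groups did not overlap, and the log2 fold change was -1.59 ± 0.045 (SE, edgeR adjusted p = 3.7e-24). *Tead1* (ENSMUSG00000055320.17, chr7:112679318-112906807, plus strand), the TEAD factor first described at muscle promoters, had 294, 296 and 314 CPM at D0 and 240, 240 and 243 CPM at D5. Its D5 libraries were all lower, by a smaller amount, with a log2 fold change of -0.32 ± 0.033 (SE, edgeR adjusted p = 3.2e-10). *Tead3* (ENSMUSG00000002249.21, chr17:28331671-28350817, minus strand), known from placenta, had 28.7, 29.8 and 30.4 CPM at D0 and 29.7, 29.5 and 33.9 CPM at D5. These values overlapped, D5 replicate 3 being the highest, and the log2 fold change of 0.07 (standard error 0.053) was not called (adjusted p = 0.225 by edgeR). Coding sequences of the TEAD genes were from 69.2% to 73.8% identical in pairs. Only *Tead3* and *Tead4* shared stretches of 50 bases, 10 in all, which is 0.272% of those of *Tead4*. The effect of this likeness on the split of reads between the members was not tested.

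Per length, *Tead1* made up 48.5 ± 0.541% and *Tead2* 38.7 ± 0.450% of the summed TEAD TPM at D0 (SD, n = 3 each). *Tead3* was at 9.62 ± 0.135% and *Tead4* at 3.21 ± 0.163% (SD, n = 3 each). At D5 the order was different, with *Tead4* at 51.4 ± 0.449%, *Tead1* at 30.5 ± 0.260%, *Tead2* at 10.1 ± 0.532% and *Tead3* at 7.95 ± 0.557% (SD, n = 3 each). In single libraries the *Tead4* share was 3.40%, 3.10% and 3.13% at D0 and 51.8%, 51.4% and 50.9% at D5. No library came near the values of the other group. The ratio of *Tead4* to *Tead1* went from 0.0663 ± 0.00360 to 1.68 ± 0.00794 (SD, n = 3 each), and does not depend on how libraries are scaled. With the longest transcript of each gene the *Tead4* share was 2.63% at D0 and 45.7% at D5, and *Tead3* at 11.8% was then above *Tead2* at 10.9% at D5. Without division by length *Tead1* still had the most reads at D5, from 5919 to 6037 per library against 2652 to 2687 for *Tead4*.

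The summed TEAD level changed less than *Tead4* or *Tead2*, and its direction depended on the scaling. It was 153, 157 and 165 TPM in the D0 libraries and 182, 178 and 181 TPM in the D5 libraries, 1.14 times as high. The median gene tested shifted by -0.16 (log2) on the TPM scale, which TMM scaling does not show, and per kilobase of TMM-scaled CPM the summed TEAD level was 1.27 times as high at D5. Scaled to the spike-ins it was 0.856 times as high, with a wide spread between the D5 libraries (51.6 ± 26.5 against 60.2 ± 7.37 at D0 per kilobase, SD, n = 3 each). The combined level of *Yap1* and *Wwtr1* was 1.67 times as high in TPM and 1.26 times as high with the spike-ins. The latter again had a wide spread between the D5 libraries (70.4 ± 36.1 against 56.0 ± 6.25 at D0 per kilobase, SD, n = 3 each). The ratio of summed TEAD to summed *Yap1* and *Wwtr1* was accordingly 1.07 ± 0.0151 at D0 and 0.733 ± 0.0117 at D5 (SD, n = 3 each), with no overlap between libraries.

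**Figure D2:**
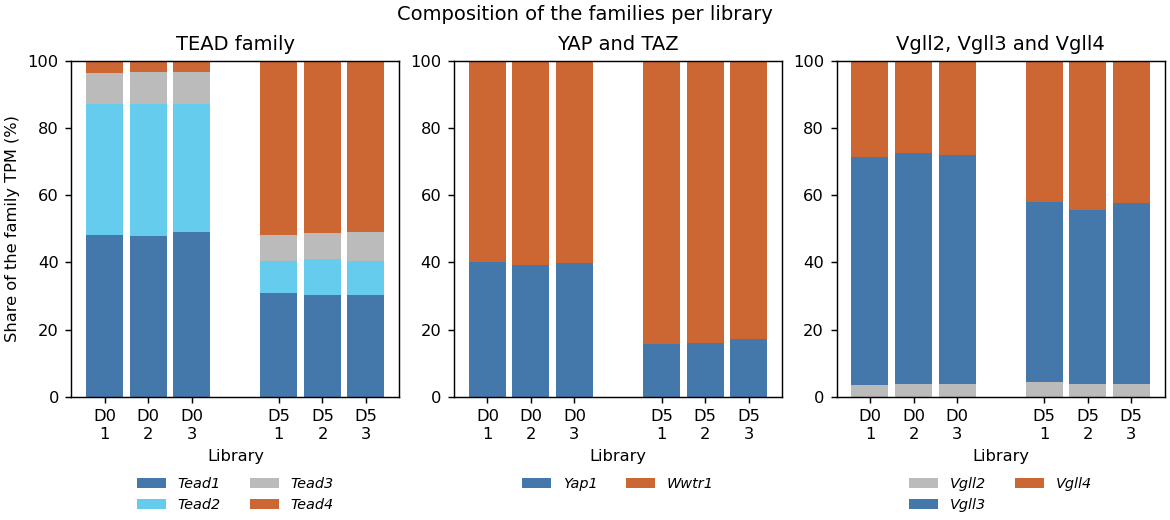
Share of each gene in the TPM of its family, in percent, for each of the 3 D0 and 3 D5 libraries. Bars are stacked to 100%. *Tead4* widens from 3.21% to 51.4% of the TEAD TPM on average, *Wwtr1* from 60.4% to 83.8% of the *Yap1* and *Wwtr1* TPM, and *Vgll4* from 27.9% to 42.9% of the TPM of the 3 *Vgll* genes, all with the exonic length of each gene (with the longest transcript *Vgll4* is at 48.4% and 64.6%).

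The *Vgll* cofactors differed among themselves as well. *Vgll3* (ENSMUSG00000091243.2, chr16:65815257-65866368, plus strand), a cofactor that can occupy TEAD proteins in place of YAP and TAZ, had 143, 148 and 153 CPM at D0 and 94.6, 92.3 and 99.5 CPM at D5. All D5 libraries were lower, with a log2 fold change of -0.63 ± 0.037 (SE, edgeR adjusted p = 4.7e-16). *Vgll4* (ENSMUSG00000030315.15, chr6:114860628-114969994, minus strand) encodes an antagonist of YAP on TEAD proteins. It had 45.8, 44.6 and 47.3 CPM at D0 and 56.5, 60.0 and 59.6 CPM at D5. Its D5 libraries were all higher with TMM scaling, with a log2 fold change of 0.36 ± 0.042 (SE, edgeR adjusted p = 6.4e-09). *Vgll2* (ENSMUSG00000049641.14, chr10:52022502-52028471, plus strand), the cofactor known from skeletal muscle, was low throughout, with 66, 78 and 77 counts at D0 and 44, 40 and 41 counts at D5. On the CPM scale these were 1.76, 1.86 and 1.91 at D0 and 1.75, 1.62 and 1.65 at D5. All D5 values were under the D0 values, but D0 replicate 1 and D5 replicate 1 were almost level. The log2 fold change of -0.14 had a standard error of 0.17 and was not called (adjusted p = 0.457 by edgeR), so a change of this size was not detectable at this depth. *Vgll1*, the remaining gene of the family, had 0 counts in every library.

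*Vgll3* made up 68.4 ± 0.522% of the summed TPM of *Vgll2*, *Vgll3* and *Vgll4* at D0 and 53.0 ± 1.09% at D5, and *Vgll4* went from 27.9 ± 0.589% to 42.9 ± 1.17% (SD, n = 3 each). These shares depend on the length used, since the exons of *Vgll4* span 5396 bases and its longest transcript 2198 bases. With the longest transcript of each gene *Vgll4* made up 48.4% at D0 and 64.6% at D5, and *Vgll3* 49.0% and 32.9%, so which of them was the more abundant at D5 turns with the length. The sum fell from 105 ± 4.72 to 78.5 ± 1.88 TPM (SD, n = 3 each). It was lower at D5 under every scaling tried, by the most with the spike-ins, where it was 0.558 times the D0 level. That value had a wide spread between the D5 libraries (22.4 ± 11.3 against 40.1 ± 5.09 at D0 per kilobase, SD, n = 3 each).

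*Lats2*, the kinase gene of the set, was not called, and its paralog *Lats1* was called lower. *Lats2* (ENSMUSG00000021959.16, chr14:57689662-57758388, minus strand) encodes a kinase that phosphorylates YAP and TAZ and is itself known as a target of YAP. It had 27.0, 26.3 and 30.2 CPM at D0 and 28.2, 27.6 and 29.7 CPM at D5. The groups overlapped, with a log2 fold change of 0.04 ± 0.055 (SE, edgeR adjusted p = 0.556), which turned to -0.00083 without D0 replicate 1 and to -0.014 without D0 replicate 2. The annotation places 42.4% of the exonic length of *Lats2* within another gene model of the same strand, *Gm49361*, so its counts are uncertain. *Lats1*, which encodes the other LATS kinase, had 199, 207 and 206 CPM at D0 and 87.8, 85.1 and 86.7 CPM at D5. All its D5 libraries were lower, with a log2 fold change of -1.24 ± 0.034 (SE, edgeR adjusted p = 2.3e-24). Per length the ratio of *Lats1* to *Lats2* went from 7.02 ± 0.493 to 2.90 ± 0.0989 (SD, n = 3 each). With the exonic lengths *Lats1* was thus the more abundant in both groups, as far as the uncertain counts of *Lats2* allow.

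In order of level per length, the myoblast libraries had *Wwtr1* first at 89.0 ± 3.28 TPM, followed by *Tead1*, *Vgll3*, *Tead2*, *Yap1*, *Vgll4*, *Tead3*, *Lats2*, *Tead4* and *Vgll2* at 3.86 ± 0.218 TPM (SD, n = 3 each). Neighbours in this order overlapped between libraries for *Tead1* and *Vgll3*, for *Tead2* and *Yap1*, and for *Tead3* and *Lats2*. In myotubes *Wwtr1* was again first at 206 ± 6.13 TPM, and *Tead4* had moved from ninth to second place at 92.6 ± 1.55 TPM (SD, n = 3 each). Below them came *Tead1*, *Vgll3*, *Yap1*, *Vgll4*, *Tead2*, *Tead3*, *Lats2* and *Vgll2*, of which only *Vgll3* and *Yap1* overlapped as neighbours. With the longest transcript of each gene as its length, *Tead1* and *Yap1* came before *Wwtr1* in myoblasts. In myotubes *Wwtr1* and *Tead4* stayed first and second, but *Vgll4* then came right after them at 66.2 ± 1.06 TPM (SD, n = 3), ahead of *Tead1*, *Yap1* and *Vgll3*, and *Tead3* came before *Tead2* with overlapping libraries.

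The genes whose profile over the 6 libraries was closest to that of *Tead4* were *Cnr1*, which encodes a cannabinoid receptor, *Egln3*, which encodes a prolyl hydroxylase of the hypoxia response, and *Tbc1d8*. Their Euclidean distances to *Tead4*, taken between log2 CPM values centred on each gene's own mean and over 11316 genes, were 0.085, 0.124 and 0.136. For *Tead2* the closest were *Sh3pxd2b*, which encodes a scaffold protein of podosomes, *Lpin3*, a lipin gene, and *Nup85*, which encodes a nuclear pore protein, at 0.082, 0.088 and 0.090. With 2 groups of 3 libraries such a distance mainly reflects an equal size of change, which was 4.46 (log2) for *Cnr1* and -1.57 for *Sh3pxd2b*.

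Under the 5 scalings compared, 7 of the 10 members kept the sign of their log2 fold change, and *Tead3*, *Vgll4* and *Lats2* did not. Scaling to the ERCC spike-ins moved the median of all genes to -0.58 (log2) and left 5560 genes called in place of 13510, of which 67.4% were lower in place of 49.2%. Under it *Tead4* had a log2 fold change of 3.78 and *Tead2* one of -2.14, and these were the only members called. *Wwtr1* had 0.81 (adjusted p = 0.22 by edgeR), *Yap1* -0.97 (adjusted p = 0.13), *Tead1* -0.89 (adjusted p = 0.17) and *Vgll3* -1.22 (adjusted p = 0.055), and *Vgll4* turned to -0.21 (adjusted p = 0.78). Relative to the median of all genes under that scaling, *Wwtr1*, *Vgll4* and *Tead4* lay above it and *Yap1*, *Tead1*, *Tead2* and *Vgll3* below it. That order restates the TMM directions, since the spike-in scaling moved all members by a similar amount.

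**Figure D3:**
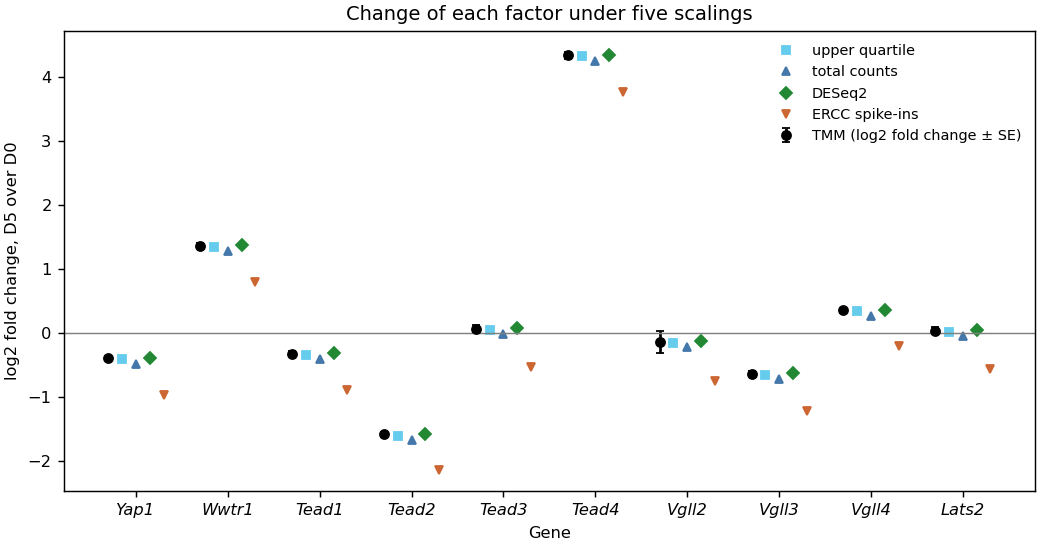
Log2 fold change, D5 over D0, of the 10 genes under 5 scalings. Black points are the TMM values with their standard errors, and the other symbols are upper-quartile factors, total counts, DESeq2 size factors and ERCC spike-ins. The ERCC values lie lower for every gene, and *Vgll4*, *Tead3* and *Lats2* are then below 0.

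Of 25 Hippo pathway regulators tested, 9 were higher (36%), 11 lower (44%) and 5 not called, near the 42.2% higher and 40.8% lower of all genes tested. Their median log2 fold change was -0.03 against 0.00 for all genes. Among 12 kinases and their adaptors, 2 were higher (16.7%) and 6 lower (50%), with a median of -0.08. With scaling to the spike-ins 3 of the 25 were higher and 6 lower, against 1813 higher and 3747 lower of all 16290 genes. With total counts 8 were higher and 15 lower, *Stk4*, *Sav1*, *Map4k4* and *Taok2* then being called lower as well and *Wtip* no longer higher. That scaling moved the median of all genes to -0.08 (log2) and called 6283 of the 16290 genes higher and 7253 lower. *Taok1*, which encodes a kinase upstream of the MST kinases, rose from 405 ± 8.75 to 791 ± 14 CPM (SD, n = 3 each), or 0.97 on the log2 scale (edgeR adjusted p = 2.7e-22), and with the spike-ins its log2 fold change was 0.40 and not called (edgeR adjusted p = 0.56). *Mob1b*, a LATS adaptor gene, rose by 0.29 on the log2 scale, from 85 ± 1.74 to 104 ± 1.73 CPM (SD, n = 3 each), and its log2 fold change was -0.28 with scaling to the spike-ins. Its paralog *Mob1a* had a log2 fold change of -0.72. *Stk38l*, which encodes a kinase related to LATS, fell from 63.3 ± 1.48 to 25.0 ± 1.25 CPM (SD, n = 3 each), or -1.34 on the log2 scale (edgeR adjusted p = 9.8e-22), and *Lats1* came next. Of the MST kinase genes, *Stk3* fell to 49.9% of its myoblast level, and *Stk4*, at 97.7%, was not called except with total counts.

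Among 13 regulators at cell junctions and scaffolds, 7 were higher (53.8%) and 5 lower (38.5%), against 42.2% and 40.8% of all genes tested, with a median log2 fold change of 0.18. With the spike-ins 3 of the 13 were higher and 2 lower, against 1813 higher and 3747 lower of all 16290 genes. *Fat4*, which encodes a giant protocadherin, rose from 29.0 ± 1.21 to 158 ± 2.31 CPM (SD, n = 3 each), or 2.45 on the log2 scale (edgeR adjusted p = 1.4e-30). *Amot*, which encodes angiomotin, a protein that binds YAP at junctions, rose from 54.8 ± 0.249 to 232 ± 6.27 CPM (SD, n = 3 each), or 2.08 on the log2 scale (edgeR adjusted p = 5.0e-30). Its paralogs *Amotl1* and *Amotl2* were also called higher, with log2 fold changes of 1.35 and 0.18, and neither was called with the spike-ins. *Wwc1*, which encodes the scaffold protein KIBRA, fell from 3.98 ± 0.257 to 1.07 ± 0.161 CPM (SD, n = 3 each), or -1.89 on the log2 scale (edgeR adjusted p = 1.1e-11). *Frmd6*, a FERM domain gene, fell from 117 ± 3.46 to 65.1 ± 1.36 CPM (SD, n = 3 each), or -0.84 on the log2 scale (edgeR adjusted p = 4.6e-19).

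**Figure D4:**
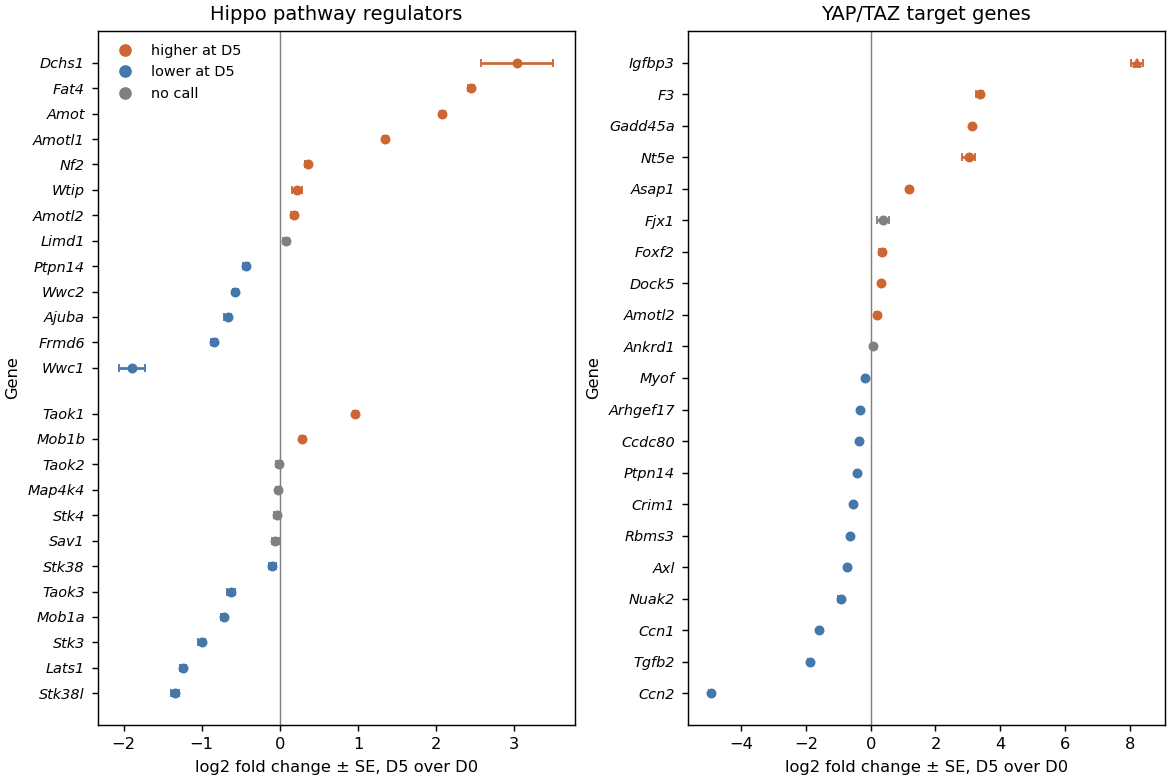
Log2 fold change with its standard error, D5 over D0, for 25 Hippo pathway regulators (left, with junction and scaffold regulators above and kinases and adaptors below) and 21 genes known as targets of YAP and TAZ (right). Orange marks genes called higher, blue genes called lower and grey genes not called. The triangle of *Igfbp3* is a fitted value that rests on D0 libraries with 3 counts or fewer. Both lists spread to either side of 0, and *Ccn2* is the lowest target.

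Of 21 genes known as direct targets of YAP and TAZ, 8 were higher (38.1%), 11 lower (52.4%) and 2 not called, against 42.2% higher and 40.8% lower of all genes tested. Of these targets, *Amotl2* and *Ptpn14* are also among the 25 regulators above. The median log2 fold change of the 21 targets was -0.18 against 0.00 for all genes. With the spike-ins 4 targets were higher and 5 lower, where 1813 of all 16290 genes were higher and 3747 lower. The best known of them are the matricellular genes *Ccn1* and *Ccn2*, listed in the files as *Cyr61* and *Ctgf*, and *Ankrd1*. *Ccn1* had 250, 255 and 272 CPM at D0 and 81.5, 81.7 and 95.6 CPM at D5, a log2 fold change of -1.59 ± 0.045 (SE, edgeR adjusted p = 4.8e-24). *Ccn2* had 1771, 1772 and 1846 CPM at D0 and 54.2, 59.3 and 62.1 CPM at D5, a log2 fold change of -4.94 ± 0.044 (SE, edgeR adjusted p = 5.6e-37). In both genes all D5 libraries lay below all D0 libraries. The exons of *Ccn2* overlap those of an opposite-strand gene over 23.2% of their length, and the strand setting of the counts was not given. *Ankrd1*, a target that is also a muscle stress gene, had 916, 909 and 873 CPM at D0 and 959, 955 and 915 CPM at D5. Its groups overlapped, since D5 replicate 3 was below D0 replicate 1, and its log2 fold change of 0.07 ± 0.033 (SE, edgeR adjusted p = 0.0539) was not called. It was called without D5 replicate 3 (0.09, edgeR adjusted p = 0.017) and by DESeq2 (0.08, adjusted p = 0.022). With the replicate number as a block it was also called (0.07, edgeR adjusted p = 0.026). It turned to -0.016 with total counts and to -0.48 with the spike-ins, neither of which was called.

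Among the other targets, *Tgfb2*, which encodes a TGF-beta ligand, fell from 128 ± 2.67 to 34.5 ± 1.73 CPM (SD, n = 3 each), or -1.89 on the log2 scale (edgeR adjusted p = 4.8e-27). *F3*, which encodes tissue factor, rose from 1.59 ± 0.381 to 16.5 ± 1.27 CPM (SD, n = 3 each), or 3.36 on the log2 scale (edgeR adjusted p = 5.4e-22). *Igfbp3*, which encodes a binding protein of insulin-like growth factors, was nearly absent from the D0 libraries, at 3, 1 and 2 counts, and reached 16.0 ± 0.558 CPM (SD, n = 3) in the D5 libraries. Against a limit of 3 counts in each D0 library it was at least 213-fold higher. The fibroblast markers, at 50.4 to 66.3 TPM at D5, moved with the targets that rose, and their part in this was not tested.

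Muscle genes whose promoters are known to carry MCAT elements completed the comparison. Of 4, the adult and fetal striated muscle genes *Tnnt2*, *Acta1* and *Myh7* rose, and *Acta2*, the smooth muscle actin gene that proliferating myoblasts also express, fell, against 42.2% higher and 40.8% lower of all genes tested. *Acta1*, skeletal muscle actin, went from 21.6 ± 2.58 to 3451 ± 170.4 CPM (SD, n = 3 each), or 7.32 on the log2 scale (edgeR adjusted p = 5.4e-38). *Tnnt2* encodes the cardiac form of troponin T and had a log2 fold change of 6.40. *Myh7*, the slow myosin heavy chain gene, had 5, 4 and 7 counts at D0 and reached 266 ± 34.4 CPM (SD, n = 3), and its log2 fold change of 10.92 rests on these few D0 counts. *Acta2* went from 2858 ± 57.4 to 1012 ± 65.9 CPM (SD, n = 3 each), or -1.50 on the log2 scale (edgeR adjusted p = 3.4e-25). All 4 genes held the MCAT letters in a promoter window, which restates how they were chosen.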

How the data were processed

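RNA-seq of 3 D0 and 3 D5 C2C12 cultures was performed for the authors by a genomics service laboratory. The authors deposited raw read counts per gene, one file per library, made with featureCounts on GRCm38 (mm10). The labels name NGS-QC-Toolkit and Tophat2, the methods of the study FastQC and HISAT2. The annotation release, the strand setting and the handling of reads with several matches were not given in the sources used here. The 92 ERCC rows and an unnamed row equal to the column total were left out. Positions, lengths and overlaps came from GENCODE vM21 (99.93% of 54525 identifiers matched), promoter windows from RefSeq. The members are defined by symbol alone, but they and the lists were chosen with earlier results of these data known.

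Counts were filtered with filterByExpr, scaled with TMM and tested with the quasi-likelihood test of edgeR 4.0.16 in R 4.3.3, with Benjamini-Hochberg adjustment over 16290 genes and a threshold of 0.05. CPM is per 1000000 counts, and TPM used the union of exons. The SE of a log2 fold change is its absolute value over the root of the F statistic. Within groups, counts of library pairs differed by 2.28 to 3.71 times the chi-square that sampling alone gives, so none was a copy. The detection limit of 3 counts covers counting error only. Family values were compared by an exact permutation test. Named genes were the members, *Lats1*, *Vgll1*, *Ccn1*, *Ccn2* and *Ankrd1*, from each list the 2 called genes that rose most and the 2 that fell most at a mean of at least 100 counts in a group, and the 3 genes closest to 2 members. *Mob1a*, *Map4k4*, *Sav1*, *Stk3*, *Stk4*, *Taok2*, *Wtip*, *Amotl1*, *Amotl2*, *Ptpn14*, *Dchs1*, *Tnnt2* and the markers of other cell types were named after their values were seen. Alternatives were DESeq2 1.42.0, upper-quartile factors, total counts, ERCC scaling, no filter, a minimum of 10 counts per library, a block for the replicate number, omission of single libraries, and other lengths. On data simulated from the D5 against D0 comparison, with 15928 genes tested, 88.1% of 193 genes changed 2-fold were recovered and 4.49% of calls fell on unchanged genes. Only these few genes were changed, up or down at random, whereas 82.9% of genes were called in the real comparison. The simulated rates therefore do not describe the error of the real calls.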

Additional observations from a re-analysis of the deposited data

How the results depend on the processing

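Of the 10 members, 8 kept their direction and their side of the threshold under every alternative except scaling to the ERCC spike-ins, and 3 under all of them, *Tead2*, *Tead4* and *Vgll2*. With the spike-ins 1 member was higher and 1 lower, 3 Hippo regulators were higher and 6 lower, and 4 YAP and TAZ targets were higher and 5 lower. Of all 16290 genes, 1813 were higher and 3747 lower under that scaling. Among the 27 named genes whose values were followed, the log2 fold changes that turned were then -0.53 for *Tead3*, -0.21 for *Vgll4*, -0.56 for *Lats2*, -0.48 for *Ankrd1* and -0.28 for *Mob1b*. With total counts those that turned were -0.015 for *Tead3*, -0.050 for *Lats2* and -0.016 for *Ankrd1*. *Lats2* was -0.018 with no filter on low counts. With total counts 15 Hippo regulators were lower in place of 11, where 7253 of all 16290 genes were lower. With no filter 13 were lower, where 7637 of the 29266 genes then tested were lower and 7637 higher. The spike-in share varied from 0.720% to 2.09% among the D5 libraries, so that scaling has the widest spread, and the cause of the shift was not tested.

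With one library left out at a time, 3 members stayed higher and 4 lower, from 9 to 10 Hippo regulators were higher and from 10 to 11 lower, and from 8 to 9 targets were higher and 11 lower. *Lats2* then ranged from -0.014 to 0.085. *Ankrd1* was called at 0.09 without D5 replicate 3 and at 0.08 by DESeq2. The rise of the *Tead4* share was 48.1 percentage points, from 47.9 to 48.4 with one library left out, 43.1 with the longest transcript and 25.1 with counts not divided by length. The change of the *Yap1* share was -23.4 points, from -23.8 to -23.1 with one library left out, -28.1 with the longest transcript and -28.7 with counts not divided by length. Chosen after seeing the data, the longest transcript gave D5 over D0 ratios of 1.06 for the summed TEAD level, 1.47 for *Yap1* plus *Wwtr1* and 0.871 for the *Vgll* genes, and TMM-scaled CPM per kilobase gave 1.27, 1.86 and 0.831. The same ratios per kilobase were 0.856, 1.26 and 0.558 with the spike-ins, so the TEAD sum turned, and the other 3 scalings (total counts, upper quartile and DESeq2 size factors) kept all 3 directions.

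Whether samples with the same replicate number belonged together was not settled. The correlations of their deviations were low, at 0.033, 0.064 and 0.028, but each library correlated best with its own number. Between different numbers the correlations ran from -0.044 to 0.010. With the replicate number as a block 13558 genes were called in place of 13510, the members were 3 higher and 4 lower, and *Ankrd1* was called at 0.07 (adjusted p = 0.026 by edgeR). Among the members *Vgll2* had the fewest counts, at most 78 in a library, and the largest standard error, 0.17.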
